A study of Mus musculus with 16 samples.

Results

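Co-stimulatory and co-inhibitory surface receptors were examined in bulk mRNA-Seq of lung ILC2s, the group 2 innate lymphoid cells that release type 2 cytokines in the airways. The 10 genes were chosen by name: *Icos*, *Cd28*, the ICOS ligand gene *Icosl*, *Klrg1*, *Cd200r1*, *Tigit*, *Pdcd1*, *Havcr2*, *Ctla4*, and *Lag3*. All 10 were found among the 51912 genes of the count table. The study asked how PAC1, a phosphatase encoded by *Dusp2*, shapes the response of ILC2s to the neuropeptide CGRP.

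ILC2s came from the lungs of WT mice and of *Pac1*-/- mice, which lack PAC1. In the general culture protocol of the study, sorted ILC2s were expanded with IL-2 and IL-7 before stimulation, and it is not stated whether this holds for the cells of these libraries. Every group received IL-7 at 100 ng/mL. The first treatment was IL-7 alone, the second added the alarmin IL-33 at 100 ng/mL, and the others added to IL-7 and IL-33 either CGRP, known to restrain ILC2s, or NMU, known to activate them, each at 500 ng/mL. The treatments are called IL-7, IL-33, CGRP, and NMU below. Stimulation lasted 4 hours, and approximately 500 cells were lysed for each library. There were 2 libraries for each genotype under each treatment, or 16 in 8 groups, and it is not stated that the 2 libraries came from separate mice or cultures. The *P* values therefore measure only the spread between libraries, which may be technical. Mice of the study were 6 to 8 weeks old, of both sexes, and matched for sex and age, and the sex behind each library is not given in the sources used here.

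Lymphocytes set the strength of a response by a second signal beside the one that activates them. ICOS and CD28 are co-stimulatory receptors that pass this signal through phosphatidylinositol 3-kinase, and ILC2s can present ICOS ligand to each other. KLRG1, CD200R1, TIGIT, PD-1 (encoded by *Pdcd1*), TIM-3 (encoded by *Havcr2*), CTLA-4, and LAG-3 are co-inhibitory receptors, and KLRG1, ICOS, and PD-1 are used in sorting and describing ILC2s.

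The total count per library was between 6764992 and 15963357, and levels are given as CPM, counts per 1000000 after TMM scaling. A gene was taken as detected above a floor of 3 counts, which equaled 0.171 to 0.461 CPM. Since no molecular identifiers are described, PCR copies of 1 molecule may be counted more than once, and the floor reflects counting error alone. Of 12 ILC2 marker genes, 11 were above the floor in all 16 libraries, among them *Gata3*, *Il1rl1*, and *Rora*, and *Il17rb* was above it in 13. The summed level of 10 T cell genes was 363 to 1172 CPM. *Trbc1*, *Trbc2*, *Cd3g*, and *Cd3d* were above the floor in all 16 libraries, *Trac* and *Cd247* in 15, *Cd3e* in 11, *Cd8b1* in 4, and *Cd4* in 1. *Cd8a* was at 0 in every library. *Trbc1*, *Trbc2*, and *Cd3g* had medians of 255, 341, and 110 CPM, whereas *Cd3e* and *Trac* did not exceed 8.97 and 7.46 CPM. *Dusp2* was at 0 in all 8 *Pac1*-/- libraries but above the floor in only 2 of 8 WT libraries, with at most 57 counts, so it did not check the genotype labels. In bulk samples, fewer cells that carry a transcript and less transcript per cell cannot be told apart.

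The promoters of *Tigit* and *Pdcd1* are shown first. Of the members with at least 10 counts in every library and RefSeq promoter sequence at hand, they had the widest differences between treatments. Each run is the 250 bases before the gene's start on the gene's own strand, from RefSeq on GRCm38.p6, and capitals mark the letters TTTCC, which is GGAAA on the other strand. GGAAA is the core that NFAT proteins bind, factors known to act on *Pdcd1* in T cells.
Tigit (chr16:43664185-43664434, minus strand): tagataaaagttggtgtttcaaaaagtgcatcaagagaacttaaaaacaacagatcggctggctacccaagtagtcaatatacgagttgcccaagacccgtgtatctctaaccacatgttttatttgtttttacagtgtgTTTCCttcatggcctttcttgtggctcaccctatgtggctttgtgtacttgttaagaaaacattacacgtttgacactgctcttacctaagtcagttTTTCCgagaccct
Pdcd1 (chr1:94052554-94052803, minus strand): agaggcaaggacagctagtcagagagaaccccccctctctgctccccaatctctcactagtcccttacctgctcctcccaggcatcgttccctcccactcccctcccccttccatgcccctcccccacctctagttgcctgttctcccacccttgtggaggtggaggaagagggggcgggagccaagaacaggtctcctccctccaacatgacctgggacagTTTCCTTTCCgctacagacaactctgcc

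Motifs were searched on both strands in the 5 member windows at hand, those of *Icosl*, *Pdcd1*, *Ctla4*, *Havcr2*, and *Tigit*. GGAAA was present in 3 of them, against 55.6% of all 32851 windows of this length. In *Tigit* it lay 110 to 106 and 13 to 9 bases before the start, and in *Pdcd1* 28 to 24 and 23 to 19 bases before it. GGAAG, the core of ETS sites, was present in 3 of 5 windows against 64.1% of all windows. TGANTCA, the AP-1 site, was present in *Havcr2* only, against 6.75% of all windows. The CREB site TGACGTCA and its shorter form TGACG, which any TGACGTCA also contains, were in none of the 5, against 1.55% and 17.8% of all windows. These matches are letters in a window and were not tested as sites.

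The 10 genes spanned a wide range of levels. To compare genes with each other, CPM was divided by the gene's summed exon length in kilobases. *Klrg1*, an inhibitory lectin-like receptor of mature ILC2s, led with a median of 617 CPM per kb over the 16 libraries and a range of 365 to 1143. *Cd200r1*, the receptor of CD200, followed with a median of 157 CPM per kb (93.1 to 225). *Icos* had a median of 133 CPM per kb (93.1 to 174). *Tigit* reached a median of 95.9 CPM per kb (31.8 to 433), and *Pdcd1* 47.6 CPM per kb (24.5 to 153). *Havcr2* stood at a median of 8.75 CPM per kb (3.11 to 17.7). The range of *Klrg1* did not overlap that of *Cd200r1*, and the range of *Havcr2* overlapped neither that of *Pdcd1* above nor that of *Cd28* below. *Cd200r1*, *Icos*, *Tigit*, and *Pdcd1* each overlapped the next in the order, so their order is not separated beyond the spread of the libraries. By median CPM, *Klrg1*, *Cd200r1*, and *Icos* were at the 98.9th, 98.0th, and 97.7th percentiles of the 14979 genes that passed the filter on low counts over all 16 libraries.

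**Figure D1:**
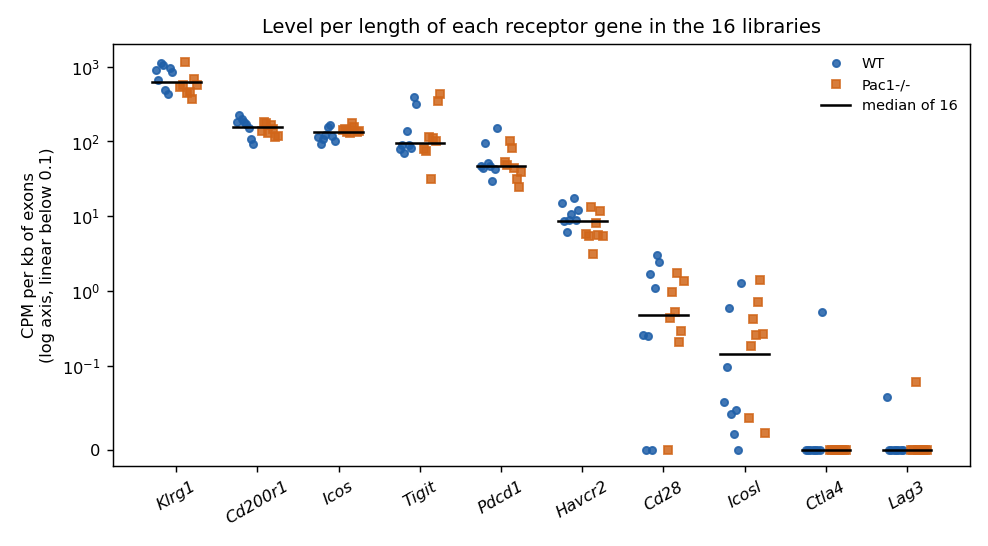
Level per length of the 10 receptor and ligand genes in the 16 libraries, in CPM per kb of exon on a log axis that is linear close to 0, with 1 point per library, colors for genotype, and the median of 16 as a line. *Klrg1* lies between 365 and 1143 CPM per kb, above the range of every other member except *Tigit*, whose highest library reached 433, while *Cd28*, *Icosl*, *Ctla4*, and *Lag3* are near or at 0.

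The 4 other genes were scarce. *Cd28*, the classical co-stimulatory receptor of T cells, was above the floor in 13 of 16 libraries with a median of 0.486 CPM per kb and a highest count of 135. *Icosl* was above it in 10 libraries with at most 53 counts. *Ctla4*, the inhibitory counterpart of *Cd28*, had 11 counts in WT NMU replicate 2 and 0 in the other 15 libraries. *Lag3*, an inhibitory receptor of activated T cells that binds MHC class II, had 2 counts in WT IL-7 replicate 1, 3 in *Pac1*-/- IL-33 replicate 1, and 0 in the other 14. The transcripts of *Ctla4* and *Lag3* were thus not detected above the floor outside 1 library. *Cd28*, *Ctla4*, and *Icos* are neighbors on chromosome 1 (chr1:60716800-60773359, chr1:60887000-60915832, and chr1:60977927-61000320, all on the plus strand of GRCm38), with 113640 and 62094 bp between them. Within this cluster, *Icos* was counted 2624 to 7975 times per library and *Ctla4* at most 11 times. *Icos* overlaps the predicted gene *Gm37039* on the same strand, which received 1 to 44 counts, and none of the 10 genes had a near-identical stretch elsewhere in the annotated transcripts.

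*Tigit* (ENSMUSG00000071552, chr16:43648867-43664146, minus strand) showed the widest difference between treatments among the 6 members with at least 10 counts in all libraries. TIGIT competes with the activating receptor CD226 for ligands of the nectin family and passes an inhibitory signal. With NMU, *Tigit* was at 366 and 291 CPM in the WT libraries and at 318 and 398 CPM in the *Pac1*-/- libraries. With CGRP, it was at 81.8 and 75.5 CPM in WT and at 102 and 93.1 CPM in *Pac1*-/- libraries. All 4 NMU libraries were above all 4 CGRP libraries, and *Tigit* was 3.89-fold higher with NMU (343 ± 47.6 CPM, SD, *n* = 4) than with CGRP (88.2 ± 11.9 CPM, SD, *n* = 4). In edgeR's quasi-likelihood test, with *P* values adjusted by the Benjamini-Hochberg method, the log2 fold change of CGRP against NMU was -1.94 (SE 0.183, adjusted *P* = 0.00182). Genes past the cutoff of an adjusted *P* value under 0.05 and a fold change above 1.5 made up 3.86% of the 12834 genes tested in this comparison, and genes lower with CGRP 1.44%. *Tigit* and *Klrg1* were the 2 of 8 tested members past it.

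The other treatments placed *Tigit* at a common low level. IL-33 libraries had 64.6 and 128 CPM in WT and 106 and 29.2 CPM in *Pac1*-/- ILC2s. IL-7 libraries had 73.0 and 83.2 CPM in WT and 72.7 and 68.4 CPM in *Pac1*-/- ILC2s. The IL-33 libraries were spread on both sides of the narrow IL-7 range, and none came near the NMU libraries. Against IL-33, *Tigit* with NMU was 4.19-fold higher in the means and 2.09 higher on the log2 scale (SE 0.40), with an adjusted *P* of 0.15 by edgeR's quasi-likelihood test (Benjamini-Hochberg), which did not pass. The unadjusted *P* value was 2.87e-04. Leaving out any 1 of the 8 libraries brought the edgeR adjusted *P* value to between 0.00675 and 0.0483, all past the cutoff, and over the 6 other settings it was between 3.61e-08 and 0.242, with 4 past the cutoff. The fits without a library tested 14466 to 14900 genes, more than the 12567 of the full comparison, and estimated the spread between libraries anew. Their log2 fold changes were 1.77 to 2.44, on both sides of the 2.09 of the full comparison. Why their *P* values were lower was not tested, and these values are not read as a stronger difference. The ratio of the means of NMU to IL-33 was 3.41 in WT and 5.31 in *Pac1*-/- libraries. The higher *Pac1*-/- ratio rested on the IL-33 library at 29.2 CPM, replicate 2. Without that library, the difference between genotypes in this response was -0.0078 on the log2 scale. CGRP, NMU, and IL-7 were compared with the same 4 IL-33 libraries, and these comparisons are not independent of each other.

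**Figure D2:**
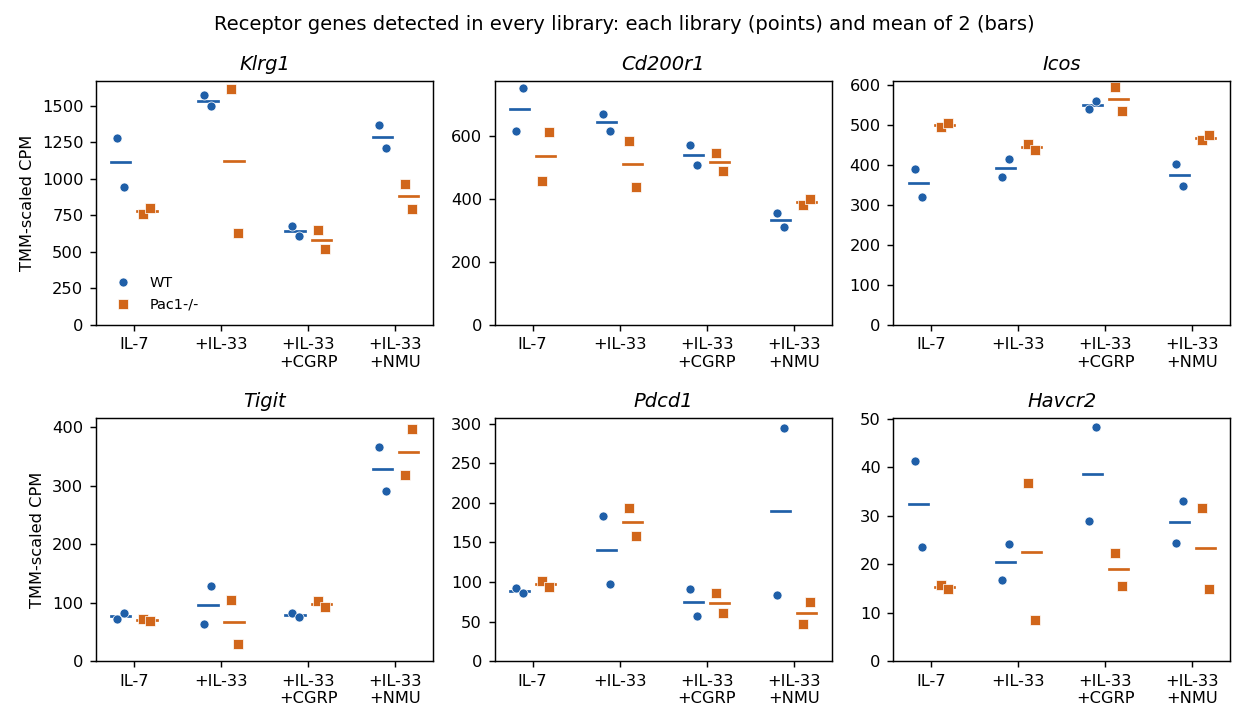
Levels of the 6 members with at least 10 counts in all 16 libraries, in CPM, by treatment, with 1 point per library, colors for WT and *Pac1*-/- ILC2s, and a line at the mean of the 2 libraries of each group. *Tigit* with NMU (291 to 398 CPM) lies above every other library (at most 128 CPM), *Klrg1* has its lowest mean with CGRP, and *Cd200r1* is lowest with NMU.

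Markers of other cell types that carry *Tigit* were read in the same libraries. The NK cell list of 6 genes, with *Tbx21* at 0 in all libraries, summed to at most 0.615 CPM in the NMU libraries. The T cell list was at 537 to 1172 CPM with NMU and at 363 to 1092 CPM in the other 12 libraries. The ranges of the T cell list overlapped between NMU and the other treatments, whereas those of *Tigit* did not, and the part of T cells in the *Tigit* difference was not tested.

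*Klrg1* (ENSMUSG00000030114, chr6:122270596-122282882, minus strand) had its lowest treatment mean with CGRP. With CGRP, it was at 678 and 606 CPM in WT and at 648 and 516 CPM in *Pac1*-/- libraries. With NMU, it was at 1371 and 1210.1 CPM in WT and at 966 and 797 CPM in *Pac1*-/- libraries. All 4 CGRP libraries were below all 4 NMU libraries, with means of 612 ± 70.6 and 1086 ± 255 CPM (SD, *n* = 4 each). By edgeR's quasi-likelihood test (Benjamini-Hochberg), *Klrg1* fell by 0.78 on the log2 scale with CGRP against NMU (SE 0.174, adjusted *P* = 0.0450). This call was near the cutoff. It remained without *Pac1*-/- CGRP replicate 1 (edgeR adjusted *P* = 0.0421) but not without any other of the 8 libraries (0.0529 to 0.143) or with all 16 libraries in 1 fit (0.0730).

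With IL-33, *Klrg1* was at 1573 and 1499 CPM in WT and at 1616 and 628 CPM in *Pac1*-/- libraries. *Pac1*-/- IL-33 replicate 2 lay within the CGRP range, and the other IL-33 libraries were above all CGRP libraries. With IL-7, it was at 1283 and 944 CPM in WT and at 759.7 and 801 CPM in *Pac1*-/- libraries, also above the CGRP range. The log2 fold change of CGRP against IL-33 was -1.08 (SE 0.267, adjusted *P* = 0.0984, edgeR's quasi-likelihood test (Benjamini-Hochberg)). Without *Pac1*-/- IL-33 replicate 2 it was -1.32 with an edgeR adjusted *P* of 0.00262, past the cutoff. Of the 8 fits with 1 library left out, this was the only 1 to pass. Without replicate 1 of the same group, the log2 fold change was -0.81. Over the 6 other settings the adjusted *P* value was between 1.68e-05 and 0.0955, with 4 past the cutoff. *Pac1*-/- IL-33 replicate 2 also had the highest TMM scaling factor of the 16, 1.27. The NK cell list, whose genes are found in cells that also carry *Klrg1*, summed to 118 to 239 CPM in the IL-7 libraries and to at most 5.29 CPM in the 12 others. Of its genes, *Gzma* reached 222 CPM, and no other gene of the list exceeded 15.1 CPM in any library.

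*Cd200r1* (ENSMUSG00000022667, chr16:44765736-44794978, plus strand) was lowest with NMU. The NMU libraries had 356 and 312 CPM in WT and 382 and 401 CPM in *Pac1*-/- ILC2s. The IL-33 libraries had 670.3 and 618 CPM in WT and 586 and 439.7 CPM in *Pac1*-/- ILC2s, and the CGRP libraries 573 and 507 CPM in WT and 548 and 489 CPM in *Pac1*-/- ILC2s. The 4 NMU libraries were below all 12 libraries of the other treatments, of which the lowest was a *Pac1*-/- IL-33 library. Against IL-33 the log2 difference with NMU was -0.66 (SE 0.223, adjusted *P* = 0.527 by edgeR's quasi-likelihood test (Benjamini-Hochberg)), which did not pass the test. Between CGRP and NMU it was 0.57 (SE 0.157, edgeR adjusted *P* = 0.0886), and the call was made in 2 of 6 other settings, with adjusted *P* values from 0.00402 to 0.299.

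*Icos* (ENSMUSG00000026009) had its highest levels with CGRP. The CGRP libraries had 540.0 and 562 CPM in WT and 597 and 536 CPM in *Pac1*-/- ILC2s. With IL-33, the values were 370.5 and 415 CPM in WT and 453 and 439 CPM in *Pac1*-/- libraries, and with NMU 403 and 349 CPM in WT and 462 and 476 CPM in *Pac1*-/- libraries. All 4 CGRP libraries were above all 12 others, the highest of which was a *Pac1*-/- IL-7 library at 506 CPM. The mean was 559 ± 28.0 CPM with CGRP against 419 ± 36.3 CPM with IL-33 (SD, *n* = 4 each), a ratio of 1.33. By edgeR's quasi-likelihood test (Benjamini-Hochberg), the difference was 0.44 on the log2 scale against IL-33 (SE 0.144, adjusted *P* = 0.202) and 0.44 against NMU (SE 0.152, adjusted *P* = 0.165), neither past the cutoff.

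*Pdcd1* (ENSMUSG00000026285, chr1:94038305-94052553, minus strand) had its highest treatment mean with IL-33. With IL-33, it was at 183 and 98.2 CPM in WT and at 194 and 159 CPM in *Pac1*-/- libraries. With IL-7, it was at 92.0 and 86.4 CPM in WT and at 102 and 93.9 CPM in *Pac1*-/- libraries. CGRP libraries had 91.7 and 57.0 CPM in WT and 86.2 and 61.2 CPM in *Pac1*-/- ILC2s. All 4 CGRP libraries were below all 4 IL-33 libraries, whereas WT IL-33 replicate 2 lay within the IL-7 range. CGRP against IL-33 gave a log2 fold change of -1.06 (SE 0.284, adjusted *P* = 0.126, edgeR's quasi-likelihood test (Benjamini-Hochberg)), and 3 of 6 other settings passed the cutoff, with adjusted *P* values from 0.0118 to 0.142. IL-33 against IL-7 gave 0.76 (SE 0.234, edgeR adjusted *P* = 0.368). With NMU, *Pdcd1* was at 84.1 and 295 CPM in WT and at 47.4 and 75.5 CPM in *Pac1*-/- libraries. WT NMU replicate 2 was the highest of all 16 libraries, and the other NMU libraries were below all IL-33 libraries.

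*Havcr2* (ENSMUSG00000020399, chr11:46454935-46481255, plus strand) had treatment means that differed by less than the SD within any treatment. Its treatment means were 23.9 ± 12.2 CPM with IL-7, 21.5 ± 12.0 with IL-33, 28.8 ± 14.1 with CGRP, and 26.0 ± 8.32 with NMU (SD, *n* = 4 each). The ranges of the 4 treatments overlapped in each of the comparisons made. The *Pac1*-/- IL-33 libraries alone spanned 36.8 and 8.47 CPM.

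Counted over the members, CGRP against IL-33 had 0 of 8 tested members past the cutoff, where 1.75% of 13160 genes passed by edgeR. At an unadjusted *P* value under 0.05 there were 3 (*Icos*, *Pdcd1*, and *Klrg1*), against 15.1% of all genes, and DESeq2 called 2. NMU against IL-33 also had 0 of 8 by edgeR, where 0.103% of 12567 genes passed, with 2 (*Tigit* and *Cd200r1*) at an unadjusted *P* value under 0.05 against 7.73% of all genes and 1 called by DESeq2. IL-33 against IL-7 had 0 of 8 by edgeR, where 0.0462% of 12980 genes passed, with 1 (*Pdcd1*) at an unadjusted *P* value under 0.05 against 10.5% and 0 called by DESeq2. For CGRP against NMU, 4 members had an unadjusted *P* value under 0.05, against 19.4% of all genes. The median log2 fold change of the 8 tested members was -0.53 for CGRP against NMU, where that of all genes was 0.03. It was -0.16, -0.05, and 0.31 for CGRP against IL-33, NMU against IL-33, and IL-33 against IL-7, where those of all genes were -0.09, -0.07, and 0.09. These medians include the scarce *Cd28* and *Icosl*. For CGRP against NMU these genes were at -1.03 (SE 1.53) and -0.53 (SE 3.14), and 3 of the 8 members were higher with CGRP. For IL-33 against IL-7 the same genes were at 2.34 (SE 1.71) and 1.81 (SE 1.39).

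Separation of the libraries was counted over the 6 members and the 5992 genes with at least 10 counts in all 16 libraries. CGRP and NMU libraries did not overlap for 4 of 6 members, against 21.9% of those genes. CGRP and IL-33 libraries did not overlap for *Icos* and *Pdcd1*, against 13.9%, and NMU and IL-33 libraries for *Tigit* and *Cd200r1*, against 6.61%. CGRP and IL-7 libraries were apart for *Icos* and *Klrg1*, against 18.7%, and NMU and IL-7 libraries for *Tigit* and *Cd200r1*, against 14.2%. IL-33 and IL-7 libraries overlapped for all 6 members, while 8.08% of those genes did not overlap.

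**Figure D3:**
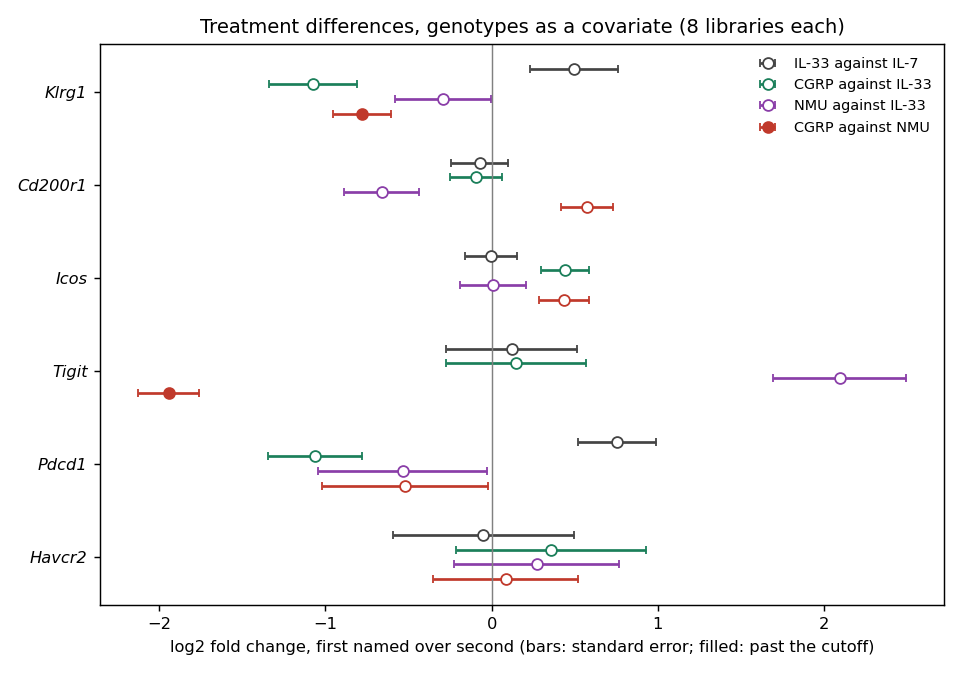
Log2 fold changes between treatments for the 6 members with at least 10 counts in all libraries, with bars of 1 SE and filled points past the cutoff, from edgeR on the 8 libraries of each comparison. *Tigit* at -1.94 and *Klrg1* at -0.78 for CGRP against NMU passed the cutoff, and *Tigit* at 2.09 for NMU against IL-33 did not.

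Across genotypes, the question was whether loss of PAC1 altered these receptors. Over all 16 libraries, with treatment as a covariate, 0 of 8 tested members passed the cutoff by edgeR, where 0.0801% of 14979 genes did. At an unadjusted *P* value under 0.05 there were 2, *Icos* and *Klrg1*, against 6.15% of all genes, and DESeq2 called 0. *Icos* was 0.26 higher on the log2 scale in *Pac1*-/- ILC2s (SE 0.103, edgeR Benjamini-Hochberg adjusted *P* = 0.803). *Klrg1* was 0.41 lower in *Pac1*-/- ILC2s, at -0.41 (SE 0.161, edgeR Benjamini-Hochberg adjusted *P* = 0.803). *Havcr2* was at -0.56 (SE 0.347), *Pdcd1* at -0.27 (SE 0.309), *Cd200r1* at -0.13 (SE 0.123), and *Tigit* at -0.06 (SE 0.228).

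Within treatments, edgeR called 0 of 7 tested members with IL-7, where 0.00916% of 10912 genes passed, and 0 of 8 with IL-33 (0.00874% of 11448 genes), with CGRP (0% of 10912 genes), and with NMU (0.0282% of 10621 genes). At an unadjusted *P* value under 0.05 there were 2 members with IL-7, 0 with IL-33, 1 with CGRP, and 1 with NMU, against 5.74%, 5.04%, 7.53%, and 5.04% of all genes, and DESeq2 called 0 members in each. For CGRP, 822 genes had an unadjusted *P* value under 0.05 and DESeq2 called 203.

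*Icos* was higher in both *Pac1*-/- libraries than in both WT libraries with IL-7, IL-33, or NMU, whereas the genotypes overlapped with CGRP. With IL-7, it was at 391 and 319 CPM in WT and at 495 and 506 CPM in *Pac1*-/- libraries, a ratio of 1.41. The ratio of *Pac1*-/- to WT was 1.14 with IL-33, 1.25 with NMU, and 1.03 with CGRP. Non-overlap between 2 and 2 libraries was common, with 33.7%, 38.1%, 39.8%, and 36.8% of the 5992 genes for IL-7, IL-33, CGRP, and NMU. Among the 6 members, the genotypes did not overlap for 6 with IL-7, 2 with IL-33, 2 with CGRP, and 4 with NMU. The change of the *Icos* genotype difference from IL-33 to CGRP, the interaction, was -0.17 on the log2 scale (SE 0.30) and that to NMU was 0.11 (SE 0.393), and neither passed the test.

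*Klrg1* was lower in mean in *Pac1*-/- libraries under each treatment, with WT to *Pac1*-/- ratios of 1.43 with IL-7, 1.37 with IL-33, 1.10 with CGRP, and 1.46 with NMU. The genotypes did not overlap with IL-7 and with NMU. With IL-33, *Pac1*-/- replicate 1 (1616 CPM) was above both WT libraries, and the lower *Pac1*-/- mean rested on replicate 2 (628 CPM). *Cd200r1* was 1.28-fold and 1.26-fold higher in WT with IL-7 and with IL-33 and 1.17-fold higher in *Pac1*-/- libraries with NMU, each without overlap. *Havcr2* was at 41.3 and 23.5 CPM in WT and at 15.8 and 15 CPM in *Pac1*-/- libraries with IL-7. With CGRP, *Havcr2* was at 28.9 and 48.2 CPM in WT and at 22.4 and 15.5 CPM in *Pac1*-/- libraries. The genotypes did not overlap in these treatments, with ratios of 2.11 and 2.03, and the edgeR fits gave -1.08 (SE 0.565) and -1.04 (SE 0.608), neither past the cutoff.

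*Pdcd1* with NMU had the widest genotype difference among the well-counted members, and it rested on 1 library. The log2 fold change of *Pac1*-/- against WT was -1.63 (SE 0.606, adjusted *P* = 0.915 by edgeR's quasi-likelihood test (Benjamini-Hochberg)). Without WT NMU replicate 2, the library at 295 CPM, it was -0.45. Without a filter on low counts the edgeR adjusted *P* value was 0.0266, and over the 6 other settings it ranged up to 1. The 7 myeloid genes, with *C1qa* at 0 in all libraries, summed to 124 and 52.7 CPM in WT NMU replicates 1 and 2 and to at most 23.7 CPM in the others. The 4 epithelial genes summed to 308 and 171 CPM in WT NMU replicates 1 and 2, against 35.4 and 54.1 CPM in the *Pac1*-/- NMU libraries. Both sums were higher in WT NMU replicate 1, where *Pdcd1* was at 84.1 CPM, than in replicate 2, where it was at 295 CPM. The part of these genes in the *Pdcd1* difference was not tested.

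**Figure D4:**
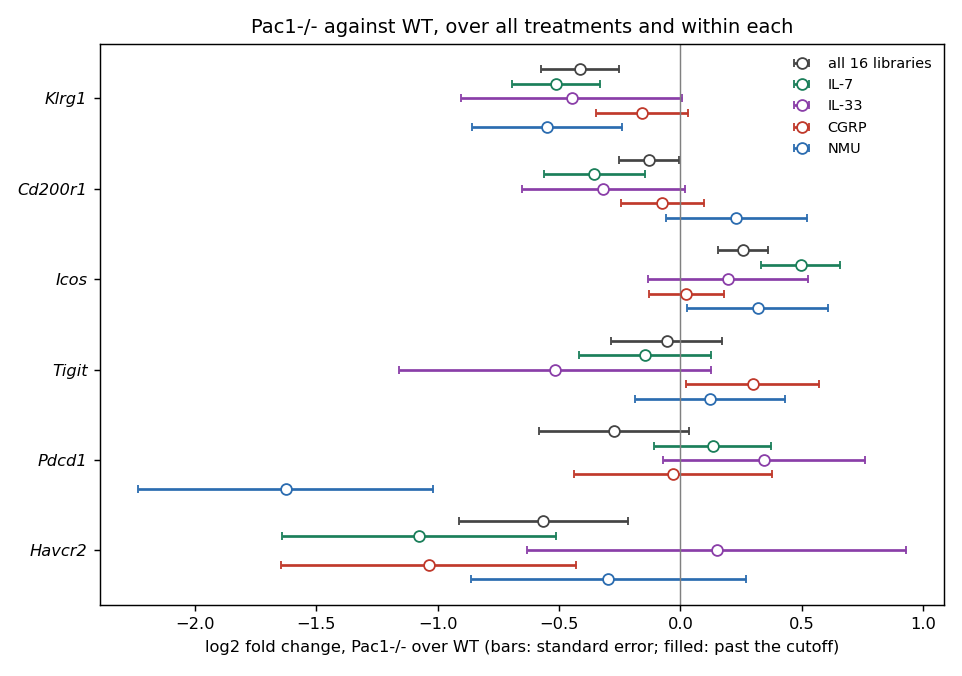
Log2 fold changes of *Pac1*-/- against WT libraries for the same 6 members, over all treatments and within each, with bars of 1 SE from edgeR. None passed the cutoff, *Icos* is at 0.50 with IL-7 and 0.03 with CGRP, and *Pdcd1* with NMU is at -1.63.

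No interaction of genotype with treatment passed. By edgeR, 0 of 8 members and 0% of 13160 genes passed for CGRP, and 0 of 8 and 0% of 12567 genes for NMU. At an unadjusted *P* value under 0.05 there were 0 and 1 members, against 719 genes (5.46%) and 801 genes (6.37%), and DESeq2 called 0 members in each and 113 and 37 genes. The member was *Pdcd1* for NMU, at -1.99 (SE 0.795, edgeR Benjamini-Hochberg adjusted *P* = 0.764), and without WT NMU replicate 2 it was -0.81. The interaction of *Tigit* with NMU was 0.61 (SE 0.774) and that of *Klrg1* with CGRP was 0.29 (SE 0.547).

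*Icosl* (ENSMUSG00000000732, chr10:78069302-78083913, plus strand) encodes the ligand through which ILC2s can engage ICOS. With CGRP it had 1 and 2 counts in the WT libraries and 33 and 50 counts in the *Pac1*-/- libraries. In the other treatments its counts were spread over both genotypes, with 37 and 2 in WT and 35 and 15 in *Pac1*-/- IL-33 libraries and with 0 and 53 in WT and 13 and 1 in *Pac1*-/- NMU libraries. With CGRP, the WT libraries were under the floor and the *Pac1*-/- libraries above it. The ratio of the summed counts, scaled for depth, was 32.0 (95% exact conditional binomial interval 10.6 to 158, for counting error only). This interval takes each count as a separate molecule, although PCR copies may be counted more than once. It also leaves out the spread between replicates, so it is too narrow as a range for the genotype difference. By edgeR's quasi-likelihood test (Benjamini-Hochberg) the adjusted *P* value was 0.562, which did not pass, and it was between 0.566 and 1 over the other settings that could test it. The 5 B cell genes, which include *Ms4a1* and mark cells that carry ICOS ligand, summed to 270.4 and 282 CPM in the *Pac1*-/- CGRP libraries and to 0.270 to 78.1 CPM in the other 14. WT NMU replicate 2, which had the highest *Icosl* count, had 11.9 CPM of the B cell list. The part of these transcripts in the *Icosl* counts was not tested.

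*Cd28* was at 18.9 and 15 CPM in the WT NMU libraries and at 1.81 and 8.45 CPM in the *Pac1*-/- NMU libraries. With IL-7, it was at 1.60 and 0 CPM in WT and at 0 and 2.69 CPM in *Pac1*-/- libraries. With IL-33 and with CGRP it was between 0 and 10.6 CPM, and replicates of the same group differed from 0 to 6.79 CPM in WT CGRP libraries. No comparison passed for *Cd28*, and the SE of its log2 fold changes was between 0.814 and 3.06.

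**Figure D5:**
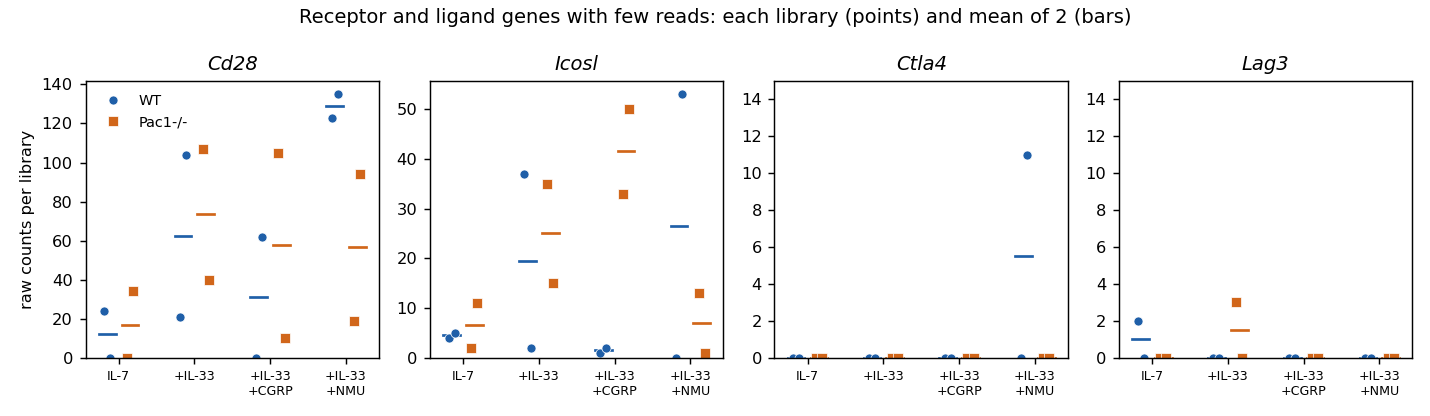
Raw counts of *Cd28*, *Icosl*, *Ctla4*, and *Lag3* in the 16 libraries, with 1 point per library, by treatment and genotype, and lines at the mean of the 2 libraries of each group. *Cd28* reaches 135 counts, *Icosl* 53, *Ctla4* has 11 counts in 1 library, and *Lag3* does not exceed 3.

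Other genes of the pathway were taken from fixed lists. Of 14 co-signaling ligands, 3 were above the floor in all 16 libraries, and of 19 other co-signaling receptors, 6. Of 21 genes of receptor-proximal signaling, the adaptors, kinases, and phosphatases that these receptors engage, 15 were.

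For CGRP against NMU, 1 of 8 tested ligands was past the cutoff, where 3.86% of all genes were. That ligand gene was *Cd86*, which encodes a ligand of CD28 and CTLA-4 (edgeR Benjamini-Hochberg adjusted *P* = 0.0452). It was at 0 in all 4 NMU libraries and in both WT CGRP libraries, and at 23.9 and 74.2 CPM in the *Pac1*-/- CGRP libraries, the same libraries in which the B cell list was highest. *Klrd1* and *Klrk1*, lectin-like receptors of NK cells, were the other receptors past the cutoff, 2 of 13 tested for IL-33 against IL-7. Both were lower with IL-33 than with IL-7 (edgeR Benjamini-Hochberg adjusted *P* = 0.0173 and 0.0197), where 0.0462% of all genes passed. *Klrd1* was at 41.4 and 40.7 CPM in WT and at 45.0 and 69.9 CPM in *Pac1*-/- IL-7 libraries and at 0 in all IL-33 libraries. The NK cell list was also highest in the IL-7 libraries, at 118 to 239 CPM. *Klrd1* was further at 22.5 and 5.48 CPM in the WT CGRP libraries, where this list summed to 4.36 and 0 CPM. *Klrk1* was at 10.2 CPM in *Pac1*-/- CGRP replicate 1, where the NK cell list was at 0. In that list *Gzma* reached 222 CPM and *Klrb1c* 15.1 CPM, while *Prf1*, *Ncr1*, and *Eomes* did not exceed 5.92 CPM in any library. The part of other cells in *Klrd1* and *Klrk1* was not tested. Among the other lists, *Pdcd1lg2*, the gene of PD-L2, a ligand of PD-1, was at 50 to 136 CPM, and *Cd274*, the gene of PD-L1, at 0 to 23.8 CPM.

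The genes whose pattern over the 16 libraries was most like that of a member were found among 4872 well-counted genes by Pearson's *r* of log2 CPM, a description in which all points share the same libraries and scaling. For *Tigit* they were *Il5* (*r* = 0.89), *U2af1* (0.87), and *Slc25a5* (0.87). For *Klrg1* they were *Cmtm7* (0.88), *Ifi47* (0.87), and *Psmb5* (0.86), and for *Cd200r1* they were *H2afv* (0.85), *Gpx4* (0.85), and *Selenoh* (0.83). For *Icos* they were *Stab2* (0.85), *Rpl9* (0.84), and *Cd9* (0.83), and for *Pdcd1* they were *Atp5a1* (0.93), *Limd2* (0.89), and *H2-D1* (0.87). *Havcr2* had no pattern as close, with *Ints4* (0.73), *Trappc13* (0.72), and *Fam118b* (0.70). Between members, *r* was lowest for *Icos* with *Klrg1* (-0.68) and *Tigit* with *Cd200r1* (-0.63).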

How the data were processed

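Lung ILC2s of WT and *Pac1*-/- mice under 4 treatments were measured by bulk mRNA-Seq, 2 libraries per group. The authors amplified full-length cDNA, sequenced paired-end reads, aligned them to mm10 with HISAT2, and deposited raw counts per Ensembl gene. The counting tool, annotation, strand setting, and duplicate handling are not given in the sources used here. The authors' own tests used DESeq2. All columns were mapped to libraries by name.

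Symbols, positions, and lengths came from GENCODE M21, which held 51719 of 51912 identifiers. In R 4.3.3 with edgeR 4.0.16, counts of the libraries of each comparison were TMM-scaled, filtered with filterByExpr, and tested by quasi-likelihood over all genes, in 11 comparisons. Log2 CPM for patterns used a prior count of 2. BLAST 2.17.0 served to look for near-identical stretches (at least 95% identity over at least 100 bases). The scripts were tested on simulated data. The members and lists were chosen with earlier results of these data known.

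All 10 members are named. Named besides were the 3 closest patterns (mean of at least 20 CPM) of each member with 10 counts in all libraries, listed genes past the cutoff, and marker genes; *Pdcd1lg2*, *Cd274*, and *Gm37039* were named after their values were seen. Replicates differed beyond counting noise (chi-square per degree of freedom 65.8 to 139). Alternatives were DESeq2 1.42.0, RLE size factors, a replicate block, at least 10 counts in every library, no filter, all 16 libraries in 1 fit, and each library left out, and for levels other lengths and scaling. Protein motifs were not counted. Some listed genes are not reported here.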

Additional observations from a re-analysis of the deposited data

Results flagged for a closer look

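In groups of 4 libraries, a library was singled out when its gap to the nearest of the others, divided by the range of the group, was above Dixon's 95% critical value. Over 24 groups, 6 members in 4 treatments, 2 were found, and chance gives about 1 in 20. *Pdcd1* with NMU had a gap of 0.852, from WT replicate 2 at 295 CPM against 47.4 to 84.1 CPM in the others. *Klrg1* with IL-33 had a gap of 0.882, from *Pac1*-/- replicate 2 at 628 CPM against 1499 to 1616 CPM in the others.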

How the results depend on the processing

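Beside the one reported, 6 settings were tried (DESeq2, RLE size factors, no filter on low counts, at least 10 counts in every library, a replicate block, and all 16 libraries in 1 fit), and each library was left out in turn. Of 167 member fold changes under these 6 settings, all kept their direction, 14 newly passed the cutoff, and 1 no longer passed. RLE size factors moved no count of calls by more than 1.5 times. Members past the cutoff went from 0 to 2, 2, 2, and 1 for CGRP against IL-33 and from 0 to 1, 1, 1, and 1 for NMU against IL-33 with DESeq2, no filter, at least 10 counts, and all 16 libraries, from 0 to 1 for genotype with NMU without a filter, and from 2 to 1 for CGRP against NMU with all 16 libraries. With libraries left out, members past it numbered 0 to 1 for CGRP against IL-33, 1 to 1 for NMU against IL-33, and 1 to 2 for CGRP against NMU. Deviations of same-numbered libraries correlated at -0.0641 to 0.0390 over 28 pairs of groups. This cannot decide whether the replicate numbers pair the libraries, since the spread between replicates could hide a shared source. With the replicate block the genes past the cutoff for genotype with IL-7 went from 1 to 0 and those for CGRP against NMU from 495 to 378.

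Genes past the cutoff depended on the setting. With DESeq2 they went from 12 to 77 for genotype over all treatments, from 1 to 78 with IL-7, from 1 to 65 with IL-33, from 0 to 203 with CGRP, from 3 to 66 with NMU, from 6 to 423 for IL-33 against IL-7, from 230 to 1083 for CGRP against IL-33, from 13 to 169 for NMU against IL-33, from 495 to 1691 for CGRP against NMU, and from 0 to 113 and 37 for the CGRP and NMU interactions. Without a filter they were, in the same order, 62, 28, 18, 82, 32, 201, 639, 77, 1102, 44, and 20. With at least 10 counts in every library they were 2 for genotype with IL-7, 6 with IL-33, 1 with NMU, 10 for IL-33 against IL-7, 465 for CGRP against IL-33, 27 for NMU against IL-33, and 859 for CGRP against NMU. With all 16 libraries they were 16 for genotype with CGRP, 413 for CGRP against IL-33, 28 for NMU against IL-33, and 820 for CGRP against NMU. For CGRP against IL-33, 202 of the 230 calls were higher with CGRP, against 690 of 1083 with DESeq2 and 247 of 413 with all 16 libraries, and the cause was not tested. With libraries left out, the genes numbered 10 to 16 for genotype over all treatments, 0 to 0 with IL-7, 0 to 103 with IL-33, 1 to 77 with NMU, 12 to 37 for IL-33 against IL-7, 133 to 243 for CGRP against IL-33, 15 to 38 for NMU against IL-33, 252 to 429 for CGRP against NMU, and 0 to 56 and 0 to 21 for the CGRP and NMU interactions. The member interactions that turned direction when 1 library was left out ranged, for CGRP, from -1.89 to 0.20 (*Havcr2*), -0.24 to 1.10 (*Klrg1*), and -0.89 to 0.0355 (*Pdcd1*) and, for NMU, from -1.14 to 0.95 (*Havcr2*), -0.62 to 0.71 (*Klrg1*), and -0.0078 to 1.81 (*Tigit*). None passed in any fit. The level of *Cd200r1* went from 157 to 191 CPM per kb with the longest transcript as length. Low counts limit what can be said of *Ctla4*, *Lag3*, *Icosl*, and *Cd28*, and 2 libraries per group limit the genotype comparisons within a treatment.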
